A study of Homo sapiens with 6 samples.

Results

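Transcripts of the NF-kB subunits and of genes that respond to the pathway or feed back on it were compared between a pair of human glioblastoma cell lines, T98G and U87MG, each measured on 3 Affymetrix arrays. The genes were set by name, with no threshold on measured values: the subunits NFKB1, NFKB2, RELA and RELB, the inhibitors NFKBIA and NFKBIE, and the responsive genes TNFAIP3, TNFAIP2, BIRC3 and TRAF1. These genes, and the pathway lists used below, were chosen with earlier results of these data known. All probe sets whose annotated symbol was one of the 10 names were taken. They numbered 14, from 9 of the 10 genes, among 22215 probe sets and 11963 named genes in all, and BIRC3 was not analysed here. Both lines were grown in DMEM with fetal bovine serum, and the labels name no treatment. They describe U87MG as withstanding apoptosis from the proteasome inhibitor bortezomib and from the isopeptidase inhibitor G5 and as prone to necrosis from G5, and T98G as open to apoptosis from both agents with some resistance to the necrosis. Each line stands for 1 tumour in long-term culture, and the labels do not say whether the arrays of a line were independently grown. The p-values therefore reflect array-to-array spread alone, which may be technical.

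NF-kB is a family of paired transcription factors. In resting cells inhibitors such as the product of NFKBIA hold the pairs in the cytoplasm. In the canonical route, receptors for tumour necrosis factor or interleukin-1 lead to an IkB kinase complex that marks the inhibitor for destruction by the proteasome, and pairs such as that of RELA with the NFKB1 product enter the nucleus. In the non-canonical route, the kinase encoded by MAP3K14 drives processing of the NFKB2 precursor, which then pairs with the RELB product. Active NF-kB raises transcription of its own inhibitors and of TNFAIP3, a feedback that ends the signal. In glioblastoma NF-kB activity is known above all from tumours with a mesenchymal character. Transcript levels of these genes do not measure NF-kB activity itself.

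The proximal promoters of the measured genes are shown for TNFAIP3, TNFAIP2 and NFKBIA. These 3 genes were, in turn, higher, lower (by the brighter probe set) and little different in U87MG in the results that follow. Sequences are from RefSeq (GRCh38.p14), run 5′ to 3′ on the strand of the gene, and cover 250 bases before the annotated start and 50 after it. Capitals mark matches to the consensus kappa-B motif, the sequence of 10 bases that NF-kB pairs bind, searched on both strands. The TNFAIP3 window lies at chr6:137867009-137867308 (plus strand), the TNFAIP2 window at chr14:103123211-103123510 (plus strand) and the NFKBIA window at chr14:35404700-35404999 (minus strand).
TNFAIP3: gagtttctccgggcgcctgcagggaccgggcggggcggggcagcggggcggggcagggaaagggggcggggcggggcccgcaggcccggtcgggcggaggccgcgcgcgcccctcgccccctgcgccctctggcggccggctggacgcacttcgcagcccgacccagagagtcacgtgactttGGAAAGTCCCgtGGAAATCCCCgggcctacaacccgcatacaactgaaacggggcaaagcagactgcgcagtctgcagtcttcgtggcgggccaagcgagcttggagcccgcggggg
TNFAIP2: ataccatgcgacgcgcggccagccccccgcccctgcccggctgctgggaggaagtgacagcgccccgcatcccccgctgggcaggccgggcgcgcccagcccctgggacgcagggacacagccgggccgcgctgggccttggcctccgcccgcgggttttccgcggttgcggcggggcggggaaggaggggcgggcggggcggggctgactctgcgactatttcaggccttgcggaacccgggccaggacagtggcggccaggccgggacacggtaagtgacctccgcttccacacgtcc
NFKBIA: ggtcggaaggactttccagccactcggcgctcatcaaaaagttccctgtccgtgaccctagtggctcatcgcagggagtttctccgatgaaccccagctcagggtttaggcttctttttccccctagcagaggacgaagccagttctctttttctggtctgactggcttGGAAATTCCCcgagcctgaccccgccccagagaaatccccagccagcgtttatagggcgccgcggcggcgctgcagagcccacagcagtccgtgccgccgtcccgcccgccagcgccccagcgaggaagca

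The TNFAIP3 window held 2 matches on the opposite strand, which on the gene strand read GGAAAGTCCC beginning 67 bases before the start and GGAAATCCCC beginning 55 bases before it. The NFKBIA window held 1, GGAAATTCCC at 81 bases before the start, and the TNFAIP2 window held none. RefSeq windows were found for 7 of the measured genes, 13 windows in all because some genes have several annotated starts. Of the 13, 5 held a match, in NFKB1, NFKB2, NFKBIA and TNFAIP3, against 5.91% of the 35116 promoter windows in the table. The genes were chosen for their known tie to NF-kB, and several windows are of the same gene, so this contrast only describes them. NFKB1 had GGGAATTTCC at 49 bases before 1 of its starts, and the 3 NFKB2 windows held 0, 3 and 2 matches, among them GGGACTTTCC at 21 bases before the start at the last of these. The palindromic match GGGAATTCCC of NFKB2 was found on both strands and overlaps another. The windows are short, so a window with no match says only that these letters are absent from it.

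**Figure D1:**
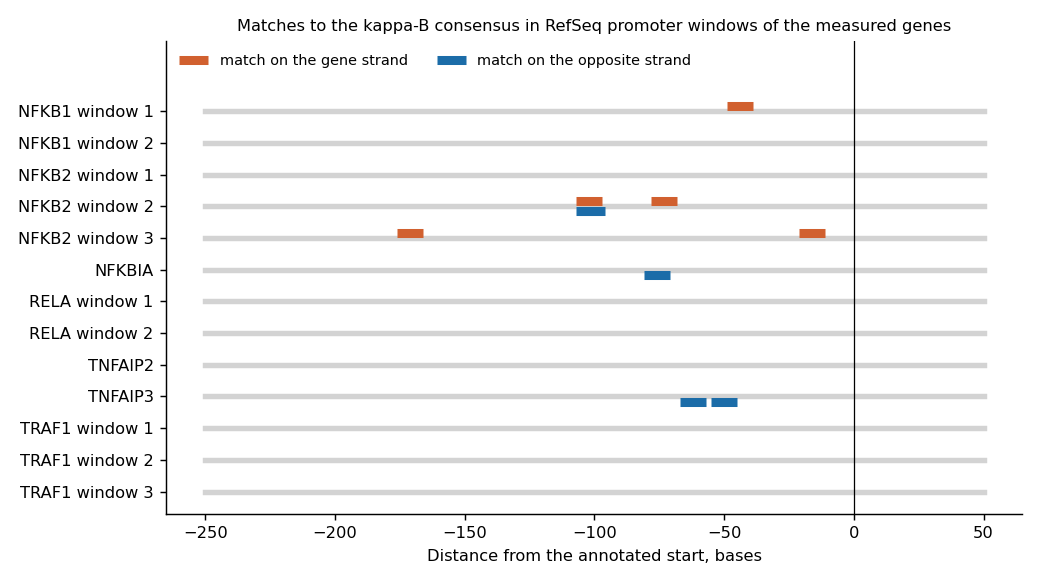
Matches to the consensus kappa-B motif (orange on the gene strand, blue on the opposite strand) in 13 RefSeq promoter windows of 7 measured genes, by distance in bases from the annotated start (0). Windows of a gene are numbered by rising chromosome position, which for RELA and TRAF1, on the minus strand, begins with the most downstream start. The matches of TNFAIP3 and NFKBIA lie within 81 bases of the start, and no match was found in the windows of RELA, TNFAIP2 or TRAF1.

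Levels are log2 signals as the authors deposited them, each difference is U87MG minus T98G, and errors are SD over 3 arrays unless an SE is named. A probe set was called when its limma adjusted p was under 0.05 with at least a 2-fold difference (log2 of 1). Over all probe sets the correlation was 0.991 to 0.997 within a line and 0.934 to 0.938 across lines. U87MG replicate 3 had the lowest mean over 24 poly-A control probe sets, at 5.30 against 6.10 to 6.84 on the other arrays. It was also the highest U87MG array for 8 of the 14 probe sets (57.1%), against 35.4% of all probe sets. Without it the 14 still gave 2 calls higher and 1 lower. Among the differences that moved, NFKB2 209636_at went from 0.09 to -0.01, RELA 209878_s_at from 0.32 to 0.20 and TNFAIP2 202509_s_at from -0.33 to -0.43. The values for RELB and TRAF1 are given with those genes. Of general glioma markers, VIM and most probe sets of CD44 were abundant in both lines (VIM at 14.59 ± 0.05 in T98G and 14.85 ± 0.05 in U87MG), whereas the glial markers GFAP, S100B, OLIG2 and SOX2 read from 4.13 (S100B) to 6.52 (GFAP) in mean and did not differ by limma at an adjusted p under 0.05. Other genes of that marker list did differ. NES was called higher in U87MG (8.89 ± 0.24 against 6.34 ± 0.20, limma adjusted p = 2.03e-06), and VIM had a limma adjusted p of 0.0497. Of 8 CD44 probe sets 1, 217523_at, was called lower (7.95 ± 0.40 against 9.40 ± 0.23). Most other CD44 probe sets were also lower at a limma adjusted p under 0.05, by -0.53 to -0.79 and so short of 2-fold. The rest, at -0.23 and -0.25, did not pass 0.05. PTPRC, the pan-leukocyte marker, read 3.37 to 4.55 in mean over its 3 probe sets, close to the 3.32 to 4.03 of the 3 bacterial control probe sets to which nothing in the sample should bind. Most other leukocyte markers read above that range, with means of 5.58 to 5.79 for CD14, 6.21 to 6.22 for CD3D, 6.67 to 6.84 for CD79A and 5.64 to 6.19 for ITGAM, whose probe set 205786_s_at was lower in U87MG (adjusted p = 0.0235). Fibroblast collagens differed in both directions (COL1A1 at 7.63 in T98G and 11.53 in U87MG on 202310_s_at, COL3A1 at 10.01 and 4.79 on 215076_s_at), and the part of these markers in the results was not tested.

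TNFAIP3 was higher in U87MG and NFKBIE was lower. TNFAIP2 was lower on 202510_s_at, while its other probe set overlapped between the lines (-0.33, limma adjusted p = 0.129). The probe sets of the other genes differed by at most 1.34-fold. Of the 14 probe sets, 2 were called higher in U87MG, both of TNFAIP3, and 1 was called lower, of TNFAIP2. Over all probe sets 12.3% were called, 5.93% higher and 6.33% lower. Another 3 of the 14, for NFKB1, NFKBIE and TRAF1, passed 0.05 for the limma adjusted p without reaching 2-fold, which makes 6 of 14 at that threshold against 37.6% of all probe sets. The arrays of the lines did not overlap for 8 of the 14, against 49.1% of all. Both of these shares are near the background and are not a result about these genes. The median difference of the 14 was 0.11 and their median absolute difference 0.33, beside -0.01 and 0.24 over all probe sets. Each array measured a whole culture, so less transcript per cell and fewer cells with the transcript cannot be told apart.

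**Figure D2:**
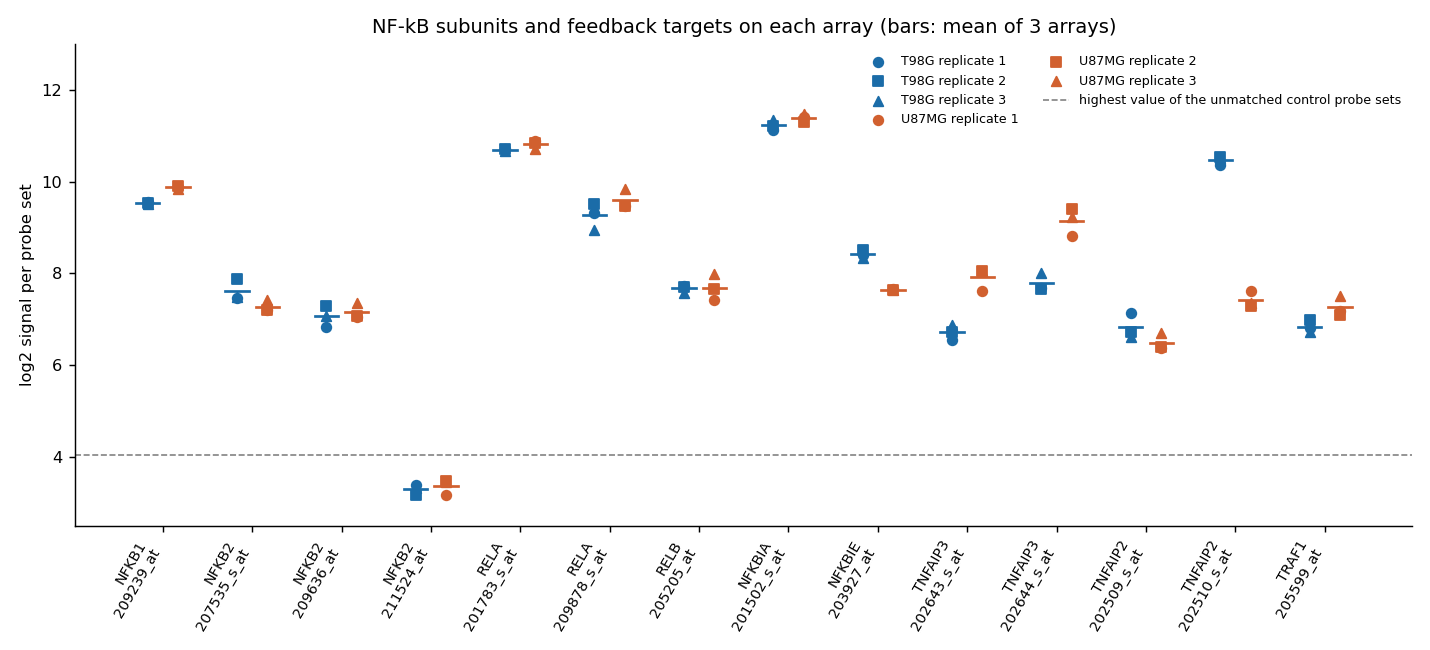
Log2 signal of the 14 probe sets on each of 6 arrays (blue T98G, orange U87MG; circle, square and triangle for replicates 1, 2 and 3; bars are means of 3 arrays), with a dashed line at 4.03, the ceiling of the bacterial control probe sets. The lines separate widely for TNFAIP2 202510_s_at and for both TNFAIP3 probe sets, and NFKB2 211524_at lies under the dashed line on every array.

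NFKB1 encodes the precursor from which the canonical DNA-binding subunit is cut. Its probe set 209239_at read 9.55, 9.54 and 9.51 on the T98G arrays and 9.88, 9.91 and 9.84 on the U87MG arrays. All U87MG arrays were above all T98G arrays, and the spread within each line was narrow. The difference was 0.34 (SE 0.09, 95% interval 0.14 to 0.55, limma adjusted p = 0.0154), a 1.27-fold difference. The adjusted p was 0.0503 to 0.0539 when T98G replicate 1, 2 or 3 or U87MG replicate 2 was left out, with little change in the difference itself.

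RELA encodes the subunit that carries the main activation domain of the canonical pair. Its probe set 201783_s_at read 10.71, 10.70 and 10.66 in T98G and 10.88, 10.85 and 10.72 in U87MG, and 209878_s_at read 9.32, 9.52 and 8.95 in T98G and 9.47, 9.46 and 9.84 in U87MG. The lines were barely separated on the first probe set and overlapped on the second. The differences were 0.13 (95% interval -0.09 to 0.34) and 0.32 (-0.06 to 0.70), with limma adjusted p of 0.364 and 0.175. The intervals leave room for a U87MG level up to 0.70 higher and do not reach 2-fold in either direction.

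RELB is the partner of the processed NFKB2 product in the non-canonical route, and a known NF-kB target itself. Its probe set 205205_at read 7.73, 7.71 and 7.57 in T98G and 7.41, 7.65 and 7.99 in U87MG. U87MG held both the lowest and the highest array, and its SD of 0.29 compares with 0.09 in T98G. The difference was 0.02 (95% interval -0.32 to 0.35, limma adjusted p = 0.954), and -0.14 without U87MG replicate 3.

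NFKB2 encodes the precursor of the non-canonical subunit and had 3 probe sets. On 207535_s_at T98G read 7.46, 7.87 and 7.49 and U87MG 7.21, 7.20 and 7.41. On 209636_at T98G read 6.83, 7.29 and 7.07 and U87MG 7.04, 7.07 and 7.35. The first probe set had every U87MG array below every T98G array, and the second overlapped. The differences were -0.33 (95% interval -0.64 to -0.03, limma adjusted p = 0.0853) and 0.09 (-0.24 to 0.42, adjusted p = 0.695). The third probe set, 211524_at, read 3.16 to 3.48 on all 6 arrays, no higher than the bacterial control probe sets, and gives no fold. The probe sets of NFKB2 therefore gave no direction that both measurable ones shared.

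Inhibitors of NF-kB are themselves induced by it. NFKBIA, the classical inhibitor that is resynthesised within a round of signalling, read 11.13, 11.22 and 11.34 in T98G and 11.40, 11.30 and 11.47 in U87MG on 201502_s_at. The lines overlapped, and the difference was 0.16 (95% interval -0.08 to 0.40, limma adjusted p = 0.284). NFKBIE, the inhibitor IkB epsilon, whose feedback is slower, read 8.40, 8.52 and 8.33 in T98G and 7.66, 7.63 and 7.63 in U87MG on 203927_at. Every U87MG array was below every T98G array, by far more than the spread within either line. The difference was -0.78 (SE 0.10, 95% interval -1.0 to -0.56, adjusted p = 0.000231), or 1.72-fold lower in U87MG, which was not called at the 2-fold minimum.

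TNFAIP3 encodes a ubiquitin-editing enzyme that removes the chains on which the pathway depends and so ends signalling. On 202644_s_at T98G read 7.69, 7.66 and 8.0 and U87MG 8.81, 9.40 and 9.23. On 202643_s_at T98G read 6.54, 6.73 and 6.88 and U87MG 7.62, 8.05 and 8.06. On both probe sets the lowest U87MG array stood above the highest T98G array. The differences were 1.37 (SE 0.17, limma adjusted p = 0.000214) and 1.19 (SE 0.15, adjusted p = 0.000256), that is 2.58-fold and 2.28-fold higher in U87MG. Among 22215 probe sets they ranked 1659 and 2055 by absolute difference. Both were called in every alternative that kept them, with differences of 1.24 to 1.53 and 1.10 to 1.34.

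TNFAIP2, a gene induced by tumour necrosis factor whose product is linked to membrane protrusions, had the widest difference. On 202510_s_at T98G read 10.37, 10.53 and 10.51 and U87MG 7.61, 7.28 and 7.36. The lowest T98G array was more than 2 log2 units above the highest U87MG array. The difference was -3.05 (SE 0.12, 95% interval -3.32 to -2.79, limma adjusted p = 1.45e-07), or 8.31-fold lower in U87MG, and ranked 436 of 22215 probe sets by absolute difference. The other TNFAIP2 probe set, 202509_s_at, read 7.13, 6.72 and 6.62 in T98G and 6.38, 6.40 and 6.69 in U87MG, with overlapping arrays and a difference of -0.33 (95% interval -0.68 to 0.02, adjusted p = 0.129).

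The TNFAIP2 probe sets disagreed in size. Both differences were negative, but the interval of 202509_s_at, -0.68 to 0.02, leaves its direction unsettled. Within an array, 202509_s_at minus 202510_s_at was -3.24, -3.81 and -3.90 in T98G and -1.23, -0.88 and -0.67 in U87MG. The gap differed between the lines by 2.72 (exact permutation test over arrays, two-sided, p = 0.10, the smallest that 3 arrays against 3 allow, and adjusted p = 0.15 over 6 such pairs of probe sets). With the probe sets of a gene averaged, TNFAIP2 was called lower, at -1.69 (SE 0.10, limma adjusted p = 8.91e-07), a mean that rests on 202510_s_at. TNFAIP3 was called higher, at 1.28 (SE 0.15, limma adjusted p = 0.000107). The gap of the TNFAIP3 probe sets, 202643_s_at minus 202644_s_at, was -1.06 ± 0.12 in T98G and -1.24 ± 0.10 in U87MG. It differed between the lines by -0.17, also at p = 0.10 in the exact permutation test (adjusted p = 0.15). That test therefore cannot tell the TNFAIP2 gap from the far smaller TNFAIP3 gap. All called probe sets of both genes carry the suffix _s_at, which the maker gives to probes shared by several transcripts.

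TRAF1, an adaptor that binds tumour necrosis factor receptors and is itself an NF-kB target, read 6.81, 6.98 and 6.72 in T98G and 7.19, 7.09 and 7.50 in U87MG on 205599_at. The lines did not overlap, although the nearest arrays, at 6.98 and 7.09, were close. The difference was 0.43 (SE 0.13, 95% interval 0.13 to 0.73, limma adjusted p = 0.0314), or 1.34-fold. The adjusted p passed 0.05 without T98G replicate 1 (0.0950), T98G replicate 3 (0.110) or U87MG replicate 3 (0.0621), the difference being 0.31 without the last.

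**Figure D3:**
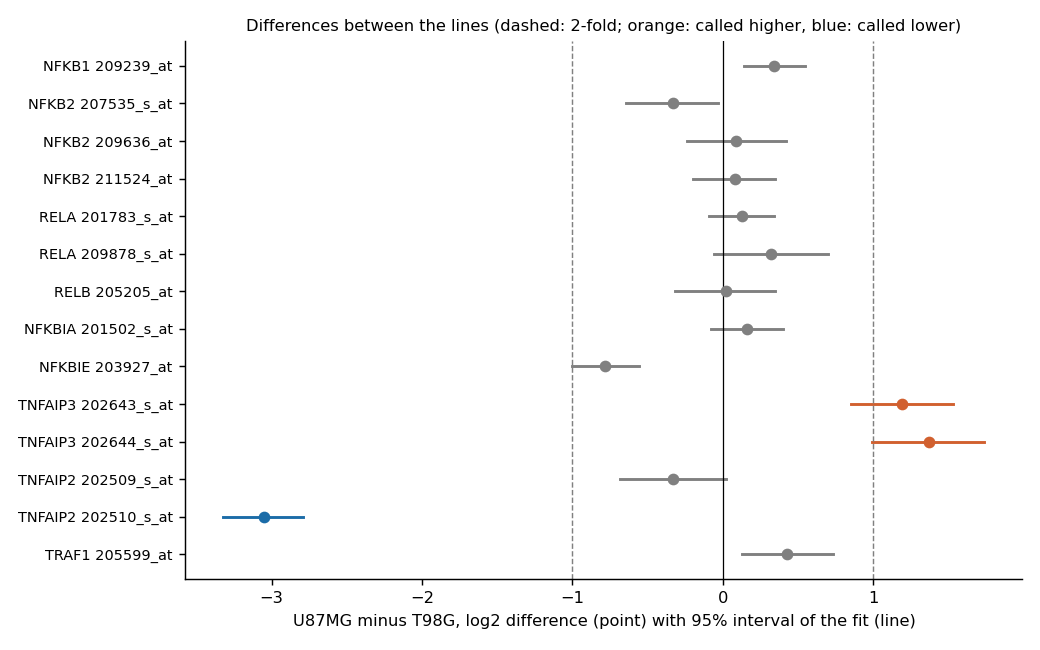
Log2 difference, U87MG minus T98G, of each of the 14 probe sets with the 95% interval of the limma fit (n = 3 arrays per line), dashed lines at 2-fold. Both TNFAIP3 probe sets (orange) are higher by 1.19 and 1.37, TNFAIP2 202510_s_at (blue) is at -3.05, and the other 11 lie between -0.78 and 0.43.

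Genes whose arrays ran most like those of the widest members were named by distance over 6 arrays, each profile centred on its own mean. Nearest to TNFAIP2 202510_s_at were NNT (202784_s_at, root mean square distance 0.0824), MTMR1 (216095_x_at, 0.0914) and EFS (204400_at, 0.0973), with differences of -2.99, -2.96 and -3.09. Nearest to TNFAIP3 202644_s_at were AFP (204694_at, 0.109), STS (203769_s_at, 0.111) and KLC1 (213656_s_at, 0.115), with differences of 1.30, 1.21 and 1.33. With 2 lines these distances mostly reflect a like difference between the lines.

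Receptors that feed NF-kB went both ways. Of 12 receptor genes, 5 had a probe set called higher in U87MG, 4 had one called lower and 3 had neither. Over all named genes 7.54% had a probe set called higher and 7.89% one called lower. In probe sets 10 of 18 were called (55.6%, against 12.3% of all), with a median difference of 0.40. As the list was chosen with earlier results of these data known, this share only describes it. TNFRSF1B, the inducible receptor for tumour necrosis factor, was 15.0-fold higher in U87MG (9.63 ± 0.15 against 5.73 ± 0.06). CD40, a receptor of immune co-stimulation, was 3.13-fold higher on the widest of 4 probe sets, which ran from 0.47 to 1.65, but was not called by the brightest of them (0.66) or by their mean (0.97). IL1R1, the signalling receptor for interleukin-1, was 2.70-fold higher on 1 of 2 probe sets, and TNFRSF9, another co-stimulatory receptor, 2.17-fold higher on 1 of 2 and not called by their mean (0.67).

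LTBR, the lymphotoxin beta receptor of the non-canonical route, was lower in U87MG. Its mean of 8.46 ± 0.12 there was 4.81-fold under the 10.73 ± 0.01 of T98G (limma adjusted p = 3.23e-07). TLR3 and TLR4, receptors for double-stranded RNA and for lipopolysaccharide, were 2.42-fold and 2.04-fold lower, the latter short of the 2-fold minimum without T98G replicate 1 (-0.87) and just short without U87MG replicate 2. TNFRSF1A, the main receptor for tumour necrosis factor, was 2.01-fold lower (10.98 ± 0.13 against 11.99 ± 0.17), at the very edge of the minimum, and fell short at -0.98 once arrays were centred or quantile-normalized again, and at -0.91 and -0.93 without T98G replicate 3 or U87MG replicate 2.

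Between receptor and subunit, most genes were not called. Of 19 genes of the activation machinery, 0 were called higher and 3 lower by limma. At an unadjusted p under 0.05, 12 of 34 probe sets were higher (35.3%, against 21.1% of all) and 8 lower (23.5%, against 23.7%). Most of the 12 were of MAP3K7 and IKBKB, and most of the 8 of UBE2N and RBCK1, so single genes count several times. The list was also chosen with earlier results known, so these shares only describe it. It includes TRAF3, a gene that restrains the non-canonical route, whose probe set 221571_at (0.61) was among the 12. MAP3K14, the kinase that sets off the non-canonical route, read 11.24 ± 0.12 in T98G and 7.89 ± 0.10 in U87MG. Its difference of -3.35 (SE 0.11, limma adjusted p = 5.67e-08), 10.2-fold lower in U87MG, was the widest of the list. RBCK1, a subunit of the complex that builds linear ubiquitin chains, was 2.67-fold lower, with both probe sets called at -1.42 and -1.41. TRAF5, an adaptor of tumour necrosis factor receptors, was 2.13-fold lower, and -0.98 without T98G replicate 3. The median difference of the list was 0.15 and 11.8% of its probe sets were called, against 12.3% of all.

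Limma called none of the further family genes measured, REL and NFKBIB. It also called neither NKRF nor NFRKB, listed with them but named for NF-kB without belonging to either family. At an unadjusted p under 0.05 stood 3 of the 7 probe sets of this list (42.9%), near the 44.8% of all, and these were of NKRF and NFRKB. REL, the subunit most used by lymphocytes, had differences of 0.26 and -0.24 on its probe sets 206035_at and 206036_s_at, and NFRKB had -0.72 and -0.65. The arrays read 4.07 to 4.97 on REL 206035_at, near the 4.03 ceiling of the bacterial control probe sets, so its direction is uncertain. Among 11 negative regulators, 1 gene had a probe set called higher and 1 one called lower, and 16% of the 25 probe sets were called, near the 12.3% of all. At an unadjusted p under 0.05 stood 72% of the 25, with 36% higher and 36% lower, against 44.8% of all. This list too was chosen with earlier results known, so the share only describes it. Leaving out 1 array moved the probe sets called lower from 1 to 0 (without T98G replicate 3 or U87MG replicate 2) or to 3 (without U87MG replicate 1). CYLD, a deubiquitinase that trims the chains that activate IkB kinase, was 2.49-fold higher in U87MG on the widest of 7 probe sets (9.47 ± 0.07 against 8.16 ± 0.28), 3 of which were called higher. By its brightest probe set (221903_s_at, 0.57) or the mean of all (0.68) CYLD was not called. TRAFD1, a feedback regulator of innate signalling, was 2.05-fold lower on 1 of 2 probe sets, and short of 2-fold without T98G replicate 3 (-0.95) and just short without U87MG replicate 2, and its mean over both (-0.85) was not called.

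Other target genes of NF-kB went both ways. Of 31 measured, 9 had a probe set called higher in U87MG, 6 had one called lower and 16 had neither, and 38.6% of their 57 probe sets were called (12.3% of all), with a median difference of 0.26. The list was chosen with earlier results of these data known, so this share only describes it. The probe sets called higher numbered 15, or 9 without T98G replicate 1 and 5 without multiply matching probe sets. Several of the 15 were of the gene CFLAR, at 1.01 to 1.32, and other CFLAR probe sets were not called. CCL20 (1.0) and IL1A 210118_s_at (1.01) also stood at the edge of the 2-fold minimum. CXCL2, a chemokine for neutrophils, was 32.5-fold higher in U87MG (9.31 ± 0.29 against 4.29 ± 0.07). Its T98G arrays read 4.22 to 4.35, little above the 4.03 ceiling of the bacterial control probe sets, so the size of this fold is uncertain. Its sole probe set, 209774_x_at, is a multiply matching one. PTGS2, the inducible prostaglandin synthase, was at least 5.98-fold higher, 1 T98G array being under 4.03 and set to it. CXCL8, a chemokine of the CXCL2 kind, was 5.43-fold higher, although its U87MG arrays spread widely (9.87 ± 0.82 against 7.42 ± 0.20). IER3, an early stress-response gene, was 4.30-fold higher. In the other direction VCAM1, an adhesion molecule for leukocytes, was 15.0-fold lower (4.87 ± 0.18 against 8.78 ± 0.86), and CCL2, a chemokine for monocytes, was 12.5-fold lower (6.82 ± 0.07 against 10.47 ± 0.31). EFNA1, an ephrin, was 4.67-fold lower. CSF1, the macrophage growth factor, was 3.66-fold lower on the widest of 4 probe sets, which ran from -1.87 to -0.62 with 2 called, and 2.59-fold lower on the brightest. The opposite directions of TNFAIP3 and of TNFAIP2 202510_s_at thus stand among target genes that were called in both directions.

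**Figure D4:**
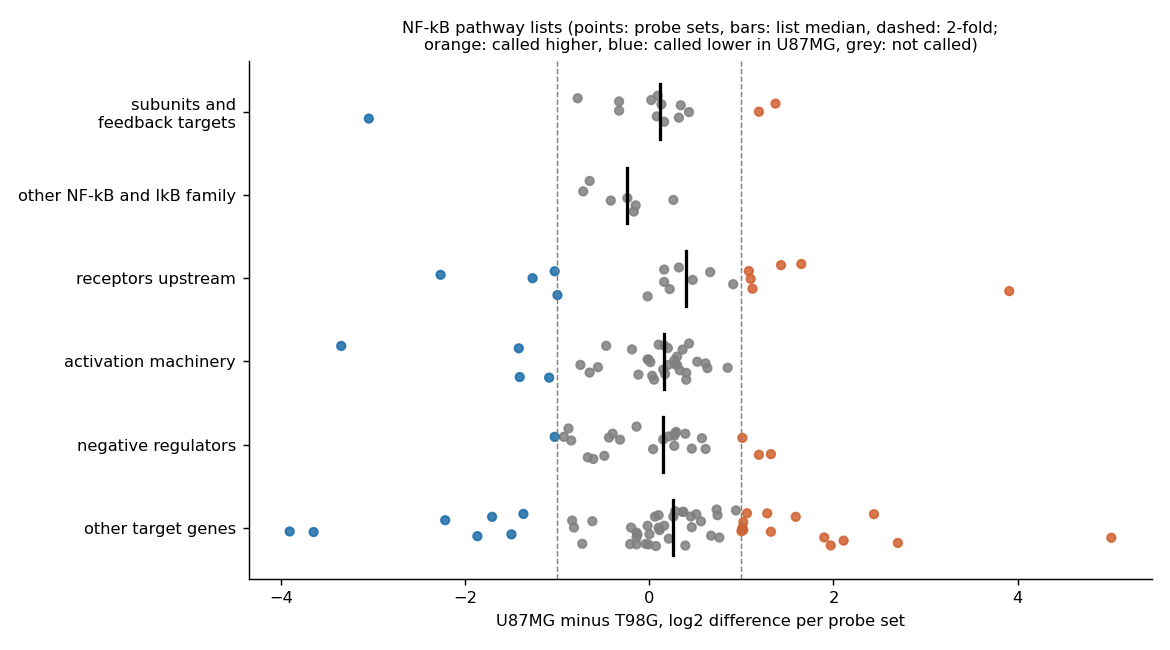
Log2 difference, U87MG minus T98G, of each probe set of the subunits and feedback targets and of 5 pathway lists (points, spread vertically for legibility; black bars are list medians; orange called higher, blue called lower in U87MG, grey not called; dashed lines at 2-fold). List medians lie between -0.24 and 0.40, while single probe sets run from -3.91 (VCAM1) to 5.02 (CXCL2).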

How the data were processed

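Total RNA of T98G and U87MG cells was amplified in 1 cycle and biotin-labelled for Affymetrix arrays, per the labels. The deposited values are log2 signals, 1 for each probe set and array. The submitters' processing notes name RMA and limma, and their versions and settings are not given in the sources used here. As a method, RMA equalises distributions between arrays and can compress differences of dim transcripts. The number of arrays limits the precision (median residual SD 0.149 on the log2 scale). Probe sets were named from a 2016 platform annotation, with symbols updated through RefSeq (GRCh38.p14). Of 22277 probe sets, 62 controls were left out, and 19064 had 1 gene.

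The lines were compared in R 4.3.3 with limma 3.58.1 (two-sided, 4 residual degrees of freedom) on all 22215 probe sets, with Benjamini-Hochberg adjustment over all of them. The fit was tested on simulated data. Every probe set of the subunit and feedback genes was described, as were up to 4 called genes per direction of each pathway list whose arrays did not overlap. The genes and lists were chosen with earlier results of these data known. Promoter windows were RefSeq's. Alternatives were 1 probe set or the mean per gene, filters, repeated normalization, other variance and threshold settings, a replicate block and each array left out.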

Additional observations from a re-analysis of the deposited data

How the results depend on the processing

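For the 14 probe sets of the subunit and feedback genes, 160 of 164 recomputed differences kept their direction and their side of the calling threshold (adjusted p and 2-fold together). The 4 exceptions were sign changes of differences near 0 when an array was left out, with NFKB2 209636_at at -0.03 to 0.20 and RELB 205205_at at -0.14 to 0.15. The count called higher, 2 as reported, was 1 with the brightest probe set or the mean per gene, where TNFAIP3 counts once, and 4 with no minimum difference. The count called lower, 1 as reported, was 2 with no minimum difference. Both counts were 0 without multiply matching probe sets (identifiers ending in _x_at, _s_at or _a_at), which removes every probe set of TNFAIP3 and TNFAIP2. For the pathway lists, 24 probe sets were called higher and 16 lower. The higher count was 11 with the brightest probe set per gene, 10 with the mean per gene, 12 without multiply matching probe sets, 14 with the filter on dim probe sets (mean over 7.63 in at least 1 line) and 46 with no minimum difference, which also gave 32 lower. The replicate block left the counts at 2 and 1, and at 24 and 16. The deviations of same-numbered arrays from their line means correlated at r = 0.153, 0.0763 and 0.0813. Differently numbered arrays were not compared in this way, so whether same-numbered arrays share a batch was not tested. Of 21 pathway probe sets named, those of TLR4, TNFRSF1A, TRAF5 and TRAFD1 lost their call in a setting that kept the probe set. Taken by gene, CYLD and CD40 lost theirs with the brightest probe set or the mean, and TNFRSF9 and TRAFD1 with the mean. The dim filter left 9 of the 14 probe sets, and 211524_at was too close to background to be measured.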

Other observations

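Several genes between the receptors and NF-kB had a limma adjusted p under 0.05 on all their probe sets with differences under 2-fold, a choice made with the values in view. TAX1BP1, an adaptor that works with TNFAIP3, was lower in U87MG on 3 probe sets at -0.93, -0.85 and -0.88 (limma adjusted p = 0.00125, 0.00149 and 0.0018), and 2 of these reached 2-fold without U87MG replicate 1 (-1.05 on 200976_s_at). UBE2N, which builds ubiquitin chains that the pathway uses, was lower on 3 probe sets at -0.65, -0.56 and -0.47. MAP3K7, the kinase that activates IkB kinase, was higher on 4 probe sets at 0.36 to 0.85, 3 of which had an adjusted p over 0.05 (up to 0.109) when some single arrays were left out. IL1A gave opposite signs on its probe sets, -0.84 on 208200_at and 1.01 on 210118_s_at, and the latter alone was called.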
